A study of Mus musculus with 6 samples.

Results

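The genes described here are 9 MAP kinases, kinases around them and dual-specificity phosphatases, taken by symbol from the table of counts: the phosphatase genes Dusp1, Dusp2, Dusp4, Dusp5 and Dusp16, the MAP kinase genes Mapk3 and Mapk14, the downstream kinase gene Mapkapk2 and the upstream kinase gene Map3k8. They are 9 of the 55254 gene symbols in that table, 18430 of which had at least 1 count. For each gene the transcript with the most counts on average was used. The 3′ ends of the mRNAs of bone marrow-derived macrophages (BMDMs) were counted in 3 control libraries, of genotype hnRNPDfl/fl, and in 3 M-Δx3,4 libraries, of genotype LysCre+hnRNPDfl/fl, all of strain C57BL/6J. All cells carried the floxed hnRNPD alleles, were grown for 10 days with medium conditioned by L929 cells, and were then treated with LPS (100 ng/ml) for 4 hours, so untreated cells were not part of the comparison. The study's methods give an age of 6 to 8 weeks for the mice. In M-Δx3,4 cells the Cre recombinase is driven from the LysM locus, which is active in myeloid cells, and removes exons 3 and 4 of hnRNPD, the gene of the RNA-binding protein AUF1. The labels do not say whether the libraries of a group came from separate animals, so the p-values measure the spread between these libraries, which may be technical.

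LPS is sensed by macrophages through TLR4, which sets off cascades in which a MAP3 kinase phosphorylates a MAP2 kinase and this phosphorylates a MAP kinase of the ERK, JNK or p38 group. Dual-specificity phosphatases remove the phosphates from both the threonine and the tyrosine of the activation loop of MAP kinases and so switch them off, and several of their genes are themselves induced by LPS. The mRNAs of many such fast-response genes carry AU-rich elements in their 3′ UTRs, the kind of sequence that AUF1 and other RNA-binding proteins bind. Comparing the groups asks whether the levels of these mRNAs differ in LPS-treated macrophages when AUF1 is reduced.

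Because AUF1 binds AU-rich RNA, the 3′ UTRs of the 9 genes were searched on the mRNA strand for the pentamer ATTTA, overlapping copies included, and for the nonamer TTATTTATT, which contains the pentamer. The UTRs were those of GENCODE vM21, on the mm10 build. The UTRs of Dusp1 (690 bases, 4 pentamers, 2 of them within nonamers) and Dusp2 (581 bases, 4 pentamers, no nonamer) were short and dense in the pentamer, with 5.80 and 6.88 copies per kb. These densities were above those of 96.2% and 97.7% of the UTRs of 9655 genes, whose median was 1.29 copies per kb. The stretches of 30 bases that hold these copies are shown from 5′ to 3′, each named by its place on mm10, with the pentamers in capitals. For contrast, the only stretch of the Mapkapk2 UTR with a pentamer and the only such stretch of the Mapk14 UTR follow, together with the stretch of the Dusp16 UTR that holds a pair of overlapping copies. The stretches of Dusp1, Mapkapk2 and Dusp16 lie on the minus strand and those of Dusp2 and Mapk14 on the plus strand.
Dusp1, chr17:26506151-26506180: tccttATTTATTTAacacccccctcacccc
Dusp1, chr17:26505862-26505891: cctttATTTAtttttgtgtaggtcggtggt
Dusp1, chr17:26505666-26505695: tgtttATTTAtgatctgaagtaatatattt
Dusp2, chr2:127337999-127338028: aattaATTTAattaattaATTTActatatt
Dusp2, chr2:127338240-127338269: ctgacATTTAacgctctctccccaacttcc
Dusp2, chr2:127338311-127338340: tttatATTTAtatagaacattgaggttgtg
Dusp16, chr6:134715956-134715985: atgtaATTTATTTAagaatgaaaacaacgg
Mapkapk2, chr1:131053700-131053729: gtctttactaaacaaATTTAatagttgaaa
Mapk14, chr17:28747863-28747892: cccatATTTAagctttgtgtgcagtaagaa

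The other UTRs differed widely in the pentamer. That of Map3k8 (979 bases) held 4 copies, or 4.09 per kb, more than 90.5% of genes. Dusp4 (1111 bases) had 2 copies, Dusp5 (1109 bases) had 1 and Dusp16 (2411 bases) had 3, the last at 1.24 per kb and so close to the median gene. Mapk14 (2068 bases) and Mapkapk2 (1392 bases) had 1 copy each, and Mapk3 (612 bases) had none. In the last 500 bases of the UTR the pentamer was present in 6 of the 9 genes, against 57.7% of the 7181 genes with a UTR that long. The nonamer was present there in Dusp1 alone among the 9, against 3.2% of genes. A match of letters is a description and not a site shown to be bound.

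The libraries differed in ways that bear on these genes. Total counts, with 1 transcript per gene, ran from 2503125 to 3846215 per library. Hnrnpd itself, followed by its p37 transcript, stood at 177.8, 104.2 and 69.6 normalized counts in control against 52.8, 12.6 and 16.0 in M-Δx3,4, with no overlap (log2 fold change -2.11, standard error 0.54, edgeR's quasi-likelihood test unadjusted p = 0.00144, adjusted p = 0.984, exact permutation p = 0.1). That transcript was set by name and not by its mean count, and it may share reads with other hnRNPD transcripts. Control replicates 1 and 3 lay at opposite ends of the first principal component, at 30.4 and -54.9, while control replicate 2 (-9.3) and the M-Δx3,4 libraries (5.3, 7.2 and 21.3) lay between them. Control replicate 3 also held 607 counts of 6 hepatocyte genes (Alb, Apoa1, Apoa2, Fabp1, Ttr and F2), of which no other library held more than 2. These 6 genes were chosen after their values were seen. All 9 macrophage markers examined had counts, and their summed normalized counts ran from 6478.3 to 7066.6 in control and from 5431.0 to 7089.7 in M-Δx3,4 libraries. Among them Lyz2, the gene of the LysM locus that carries Cre, stood at 1992.1, 1788.0 and 2200.8 against 1342.0, 881.7 and 968.2 (log2 fold change -0.91, no overlap), while Itgam (0.41) and Adgre1 (0.25) were higher in M-Δx3,4 with overlapping groups. The 7 B cell markers, all with a count, summed to between 301.0 and 358.5 in control and between 142.7 and 165.3 in M-Δx3,4 libraries, most of it Igkc (log2 fold change -1.56). Elane of the 9 neutrophil markers was at 0, and Ly6g, Mpo and Retnlg stayed at or under 1.2 normalized counts in every library. The sum of the 9 ran from 388.2 to 695.0 in control and from 482.2 to 728.3 in M-Δx3,4 libraries, most of it S100a8, S100a9, Camp and Ngp. The sums of the 5 fibroblast, 5 dendritic cell and 5 T cell markers stayed at or under 51.1 in every library, with Cd3e and Cd3g at 0, and the 4 mast cell and basophil markers had no count. The part of these differences in the results was not tested. In bulk RNA, fewer cells of a type and less RNA per cell cannot be told apart.

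Of the 9 genes, 8 passed the filter on low counts and none of the 8 differed between control and M-Δx3,4 BMDMs in edgeR's quasi-likelihood test: 0 had an unadjusted p under 0.05, and 0 passed the threshold, which also asks for a log2 fold change of 1 or more in either direction. The study set the same cutoffs on a p combined over 7 methods, and here they were set on edgeR's p alone. By DESeq2 the counts were also 0 and 0. Among all 32475 transcripts tested, 4.13% had an unadjusted p under 0.05 and 3.3% passed that threshold, 1.25% higher and 2.05% lower in M-Δx3,4, while 0 had an adjusted p under 0.05. A count of 0 among 8 genes is near these shares. The log2 fold changes of the 8 genes ran from -0.65 for Dusp1 to 0.49 for Dusp5, with 5 higher and 3 lower and a median of 0.06, against -0.03 over all transcripts. In 7 of the 8 the libraries of the groups overlapped. The exception was Dusp1, and 8.88% of all transcripts tested had groups that did not overlap.

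**Figure D1:**
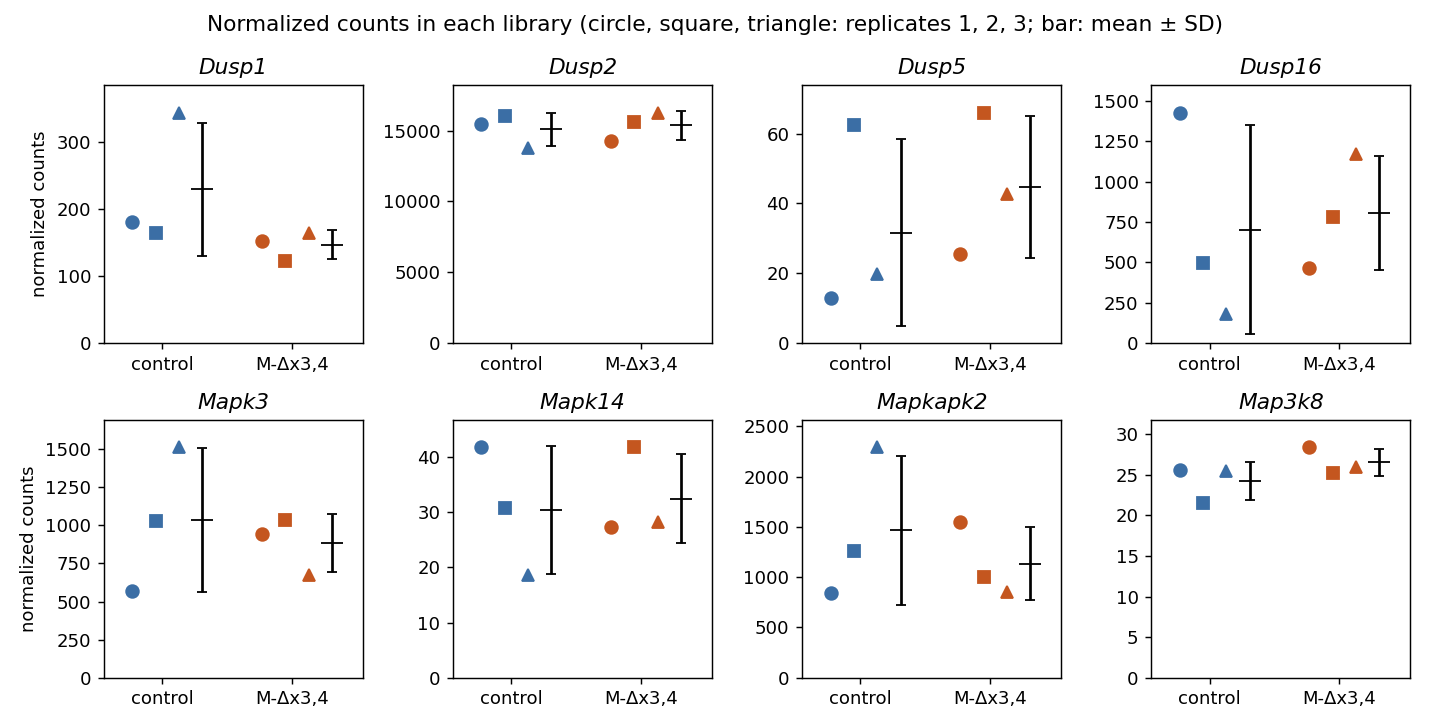
Normalized counts (y axis, from 0) of the 8 tested genes in the control (blue) and M-Δx3,4 (orange) libraries, with 1 panel per gene. Circles, squares and triangles are replicates 1, 2 and 3, and the black bars are the mean ± SD (n = 3). The control points of Dusp16, Mapk3 and Mapkapk2 spread as widely as the whole panel, and those of Dusp2 and Map3k8 lie close together.

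Dusp2 (PAC-1), a nuclear phosphatase of ERK and p38 that is abundant in activated leukocytes, was by far the most highly counted of these genes. It was counted over chr2:127337796-127338625 on the plus strand (ENSMUST00000028846), which is its 3′ UTR with 249 bases downstream. The control libraries had 15464.1, 16010.0 and 13814.0 normalized counts, and the M-Δx3,4 libraries had 14272.4, 15618.0 and 16285.9. The libraries of both groups lay within the same narrow range, and the lowest and the highest value belonged to different groups. The means were 15096.0 ± 1143.3 and 15392.1 ± 1025.6 (SD, n = 3), a log2 fold change of 0.03 with a standard error of 0.26 (edgeR's quasi-likelihood test, adjusted p = 0.998, exact permutation test, two-sided, p = 0.6). The 95% interval of the fold change was 0.69 to 1.5, the narrowest of the 8 genes.

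Dusp1 (MKP-1), the phosphatase that is induced early by LPS and inactivates p38 and JNK, was counted over chr17:26505341-26506279 on the minus strand (ENSMUST00000025025). Its control libraries had 180.2, 164.5 and 343.4 normalized counts and its M-Δx3,4 libraries 151.6, 122.3 and 164.3. The groups did not overlap, but only by the margin of 164.5 in the lowest control and 164.3 in the highest M-Δx3,4 library, and control replicate 3 stood far above the other controls. With the means at 229.4 ± 99.1 and 146.1 ± 21.5 (SD, n = 3), the log2 fold change was -0.65 (standard error 0.37, 95% interval -1.43 to 0.13), with an unadjusted p = 0.0971 and an adjusted p = 0.984 in edgeR's quasi-likelihood test. The exact permutation test, two-sided, gave p = 0.1, the smallest that 3 libraries against 3 allow. The groups also did not overlap with factors from TMM (165.7 against 164.4) or from library totals (163.9 against 161.9). Without control replicate 3 the log2 fold change was -0.23, and without control replicate 1 it was -0.79 with an unadjusted p = 0.0398 and an adjusted p = 0.316. In the fit without control replicate 1, 10.4% of all transcripts passed the threshold, and Dusp1 did not.

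The reads of Dusp1 could be followed near the very 3′ end. A stretch of 249 bases, almost wholly downstream of the annotated end of its UTR, was also counted on its own. It was counted for the transcript ENSMUST00000126178 (chr17:26505342-26505590). These bases held 55.5% of the counts of the whole region in control replicate 1 (Wilson 95% interval 47.6% to 63.1%), 60.2% in replicate 2 and 59.1% in replicate 3. In the M-Δx3,4 libraries they held 61.3%, 61.9% (53.2% to 69.9%) and 58.1%. The intervals of the lowest and the highest of the 6 shares overlapped, so no difference in the use of this end was detectable at this depth. A read across the border may be counted on both sides, and the intervals cover counting error only.

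Dusp16 (MKP-7), a phosphatase that shuttles between nucleus and cytoplasm and acts on JNK and p38, was counted over chr6:134715224-134717883 on the minus strand (ENSMUST00000100857). Its normalized counts were 1428.4, 494.5 and 181.0 in control and 464.6, 780.7 and 1169.2 in M-Δx3,4 BMDMs. Control replicates 1 and 3 were the highest and the lowest of all 6 libraries, so that the control group enclosed the M-Δx3,4 group. The means were 701.3 ± 648.9 and 804.9 ± 352.9 (SD, n = 3), and the log2 fold change was 0.20 with a standard error of 0.55 (95% interval -0.97 to 1.37, edgeR's quasi-likelihood test p = 0.722, adjusted p = 0.992, exact permutation p = 0.7). Without control replicate 1 Dusp16 passed the threshold, at 1.25 (standard error 0.43, unadjusted p = 0.00816, adjusted p = 0.201), in a fit in which 10.4% of all transcripts passed. With control replicate 3 left out the log2 fold change was -0.24.

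Dusp5, a nuclear phosphatase specific for ERK, was scarce, with raw counts of 11, 61 and 17 in the control and 26, 68 and 56 in the M-Δx3,4 libraries over chr19:53541323-53542680 on the plus strand (ENSMUST00000038287). Normalized, these were 12.8, 62.3 and 19.7 against 25.4, 66.0 and 42.8. Replicate 2 was the highest library of each group, and the groups overlapped. From means of 31.6 ± 26.8 and 44.8 ± 20.4 (SD, n = 3) the log2 fold change was 0.49 with a standard error of 0.56 (edgeR's quasi-likelihood test p = 0.392, exact permutation p = 0.4). The lowest and the highest control, 11 and 61 counts, had exact Poisson 95% intervals of 5.5 to 19.7 and 46.7 to 78.4, which cover counting error only. Without control replicate 2 Dusp5 passed the threshold at 1.45 (standard error 0.58, unadjusted p = 0.0235, adjusted p = 0.999), in a fit in which 3.19% of all transcripts passed.

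Dusp4 (MKP-2), another inducible nuclear phosphatase, had 1 count in all 6 libraries together, in M-Δx3,4 replicate 3, over chr8:34818784-34820143 on the plus strand (ENSMUST00000033930). A count of 0 in a library allows up to 3.7 counts by the exact Poisson 95% interval, so Dusp4 was near the limit of detection at this depth in both groups and was not tested.

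Among the kinases, Mapk3 (ERK1), a terminal kinase of the ERK cascade, stood at 568.4, 1029.9 and 1512.8 normalized counts in control against 945.9, 1037.1 and 674.0 in M-Δx3,4. It was counted in 2 regions within chr7:126764846-126766068 on the plus strand (ENSMUST00000057669). The lowest and the highest library were both controls. The means were 1037.0 ± 472.3 and 885.7 ± 188.9 (SD, n = 3), the log2 fold change was -0.23 and its standard error 0.36 (edgeR's quasi-likelihood test p = 0.541, exact permutation p = 0.9). Without control replicate 3 the sign turned, to 0.16.

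Mapkapk2 (MK2), the kinase that p38 activates and that acts on proteins bound to AU-rich mRNAs, stood at 846.1, 1257.7 and 2292.5 normalized counts in control against 1546.5, 1003.1 and 856.7 in M-Δx3,4. Its region was chr1:131053451-131055091 on the minus strand (ENSMUST00000016672). As for Mapk3, control replicates 1 and 3 were the lowest and the highest of the 6 libraries. The means of 1465.4 ± 745.2 and 1135.4 ± 363.4 (SD, n = 3) gave a log2 fold change of -0.37 with a standard error of 0.38 (edgeR's quasi-likelihood test p = 0.348, exact permutation p = 0.7), which became 0.12 without control replicate 3.

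Mapk14 (p38α), the p38 kinase that phosphorylates MK2, was low. Its normalized counts were 41.8, 30.7 and 18.6 in the control and 27.4, 41.8 and 28.3 in the M-Δx3,4 libraries, and the groups overlapped almost completely. The means were 30.4 ± 11.6 and 32.5 ± 8.1 (SD, n = 3) and the log2 fold change 0.10 with a standard error of 0.44 (edgeR's quasi-likelihood test p = 0.832, adjusted p = 0.997, exact permutation p = 1.0). The transcript with the highest mean count, ENSMUST00000233811, is annotated as a target of nonsense-mediated decay and is counted over 12 regions from chr17:28692793-28748654 on the plus strand. It shares nearly all of its reads with the coding transcript ENSMUST00000004990, which had 35, 30 and 16 raw counts in control and 26, 43 and 37 in M-Δx3,4 libraries, against 36, 30 and 16 and 28, 43 and 37 for ENSMUST00000233811. The coding transcript had a log2 fold change of 0.08.

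Map3k8 (TPL2), the MAP3 kinase that links TLR4 to the ERK cascade in macrophages, was steady at a low level. The control libraries had 25.6, 21.5 and 25.5 normalized counts and the M-Δx3,4 libraries 28.4, 25.2 and 26.0, over chr18:4331078-4332305 on the minus strand (ENSMUST00000025078). The groups overlapped, with the lowest M-Δx3,4 library just under the upper controls. From means of 24.2 ± 2.4 and 26.5 ± 1.6 (SD, n = 3) the log2 fold change was 0.13, with a standard error of 0.41 and a 95% interval of -0.75 to 1.02 (edgeR's quasi-likelihood test p = 0.751, adjusted p = 0.993, exact permutation p = 0.3). With raw counts between 21 and 34 per library, changes within that interval were not detectable at this depth. A stretch of 249 bases close to the distal end, chr18:4331092-4331340, was counted on its own for ENSMUST00000105472. It held 18.2%, 19.0% and 18.2% of the counts in control. In M-Δx3,4 libraries it held 41.4% (Wilson 95% interval 25.5% to 59.3%), 23.1% and 14.7% (6.4% to 30.1%), with no common direction in that group.

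**Figure D2:**
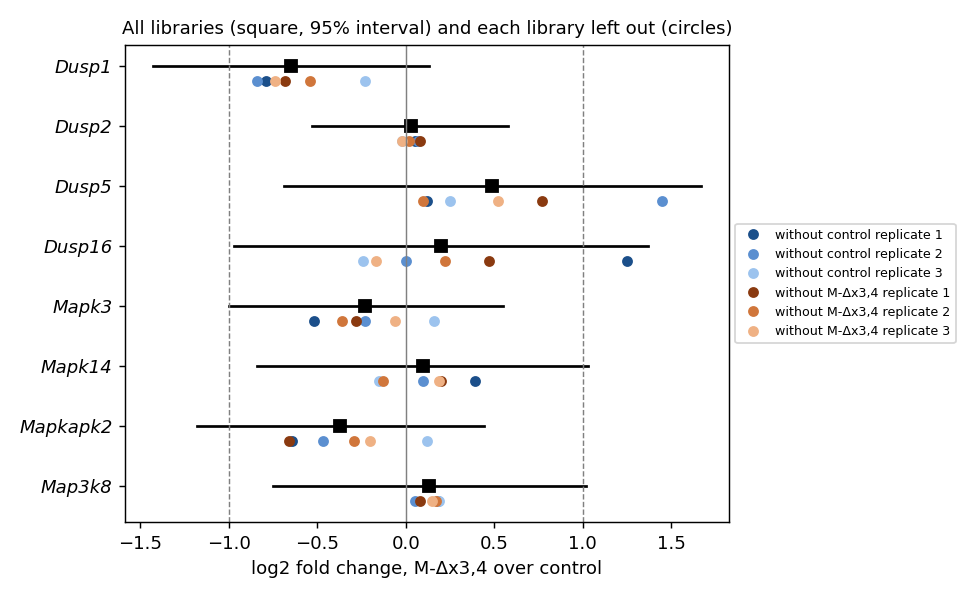
Log2 fold change of M-Δx3,4 over control (x axis) for the 8 tested genes. Squares with lines are the values with all libraries and their 95% intervals, circles are the values with each library left out (blue shades for controls, orange shades for M-Δx3,4), and dashed lines mark a log2 fold change of 1 in either direction. Dusp16 runs from -0.24 to 1.25 and Dusp5 from 0.10 to 1.45, while Dusp2 stays between -0.02 and 0.08.

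The sign of the fold change turned when 1 library was left out in 5 of the 8 genes, namely Dusp2, Dusp16, Mapk3, Mapk14 and Mapkapk2, and did not turn in the other 3. Dusp1 stayed lower in M-Δx3,4 (-0.84 to -0.23), Dusp5 stayed higher (0.10 to 1.45) and Map3k8 stayed slightly higher (0.05 to 0.19). Leaving out control replicate 3 turned the sign of Mapk3, Mapkapk2, Mapk14, Dusp16 and Dusp2. No further tested transcript of these genes passed the threshold.

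Levels across the genes spanned a wide range on the scale of normalized counts per kb of counted region, averaged over the 6 libraries. Dusp2 was at 18366.3, Mapk3 at 1116.5, Mapkapk2 at 792.5, Dusp16 at 283.1 and Dusp1 at 199.9. Dusp5 was at 28.1, Map3k8 at 20.6, Mapk14 at 9.5 and Dusp4 at 0.1. The libraries of neighbours in this order overlapped for Mapk3 and Mapkapk2, Mapkapk2 and Dusp16, Dusp16 and Dusp1, and Dusp5 and Map3k8, and not for the other neighbours. The 3′ protocol reads each mRNA at its end, so dividing by length lowers the value of a long region such as that of Mapk14. Undivided, the mean normalized count of Mapkapk2 (1300.4) was above that of Mapk3 (961.3) and that of Mapk14 (31.4) above that of Map3k8 (25.4), and the libraries overlapped in both of these pairs.

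Within the control group these genes took opposite sides. Over 4723 genes with a mean of at least 50 normalized counts, the SD of the log2 value between control libraries had a median of 0.48, and it was larger than that between M-Δx3,4 libraries in 72.8% of genes. Dusp16 had a control SD of 1.49, above 97.7% of genes, and an M-Δx3,4 SD of 0.67, above 94.4%. Dusp2 had 0.11 and 0.10, above only 4.3% and 6.9% of genes. Dusp1 (0.58), Mapk3 (0.71) and Mapkapk2 (0.72) had control SDs above the median. Between control replicates 1 and 3, Dusp16 was higher in replicate 1 by a log2 difference of 2.97, Dusp2 was nearly equal (0.16), and Dusp1, Mapk3 and Mapkapk2 were lower in replicate 1, with differences of -0.93, -1.41 and -1.44.

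The GC content of the 3′ UTR moved with that difference between control libraries. Over 3970 genes the log2 ratio of control replicate 1 to control replicate 3 fell with GC content (Spearman correlation across genes -0.59, a description, since all points share the same pair of libraries). When the genes were cut into 4 equal classes of GC content, the median log2 ratio was 0.94 in the class at or under 40.0% GC and -0.72 in the class above 50.4%. Mapk3 and Mapkapk2, with 56.0% and 54.9% GC, lay in the upper class and on the low side of the ratio. Dusp2 with 49.6% GC lay near 0. Dusp16 (43.4%) and Dusp1 (42.9%) had nearly the same GC content and lay on opposite sides. The GC trend of each library was also removed, a choice made after seeing the data, with GC content taken over the last 500 bases of each transcript. On that measure, over a different set of genes, the correlation was -0.59 before and -0.04 after. A value near 0 follows from the removal itself and is not a result. With the GC trend removed, the log2 fold change of Dusp1 was -0.98 with an unadjusted p = 0.0224 in edgeR's quasi-likelihood test. That of Mapk3 was 0.05, that of Mapkapk2 -0.11 and that of Map3k8 -0.30, and none of the 8 genes passed the threshold.

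**Figure D3:**
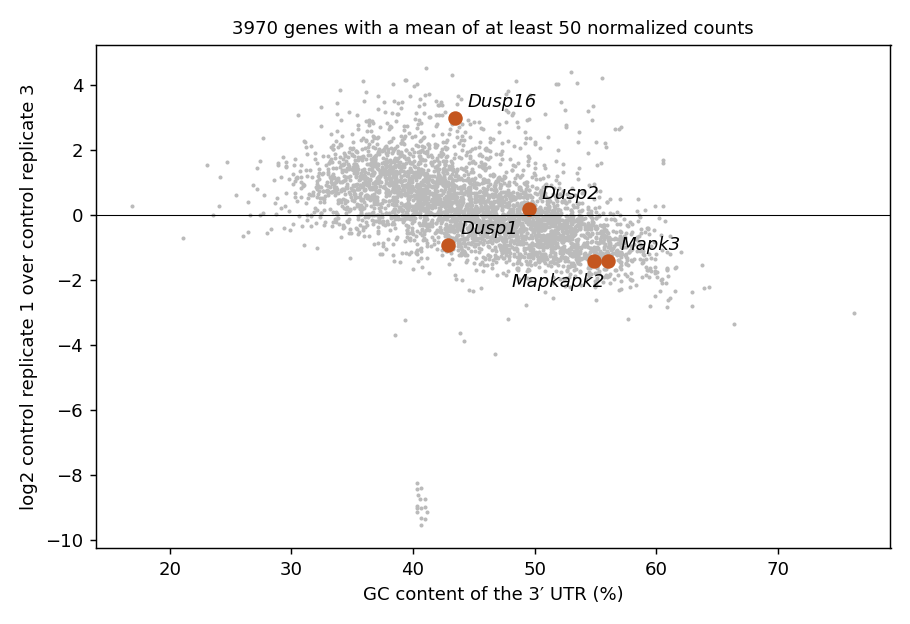
GC content of the 3′ UTR in percent (x axis) against the log2 ratio of control replicate 1 to control replicate 3 (y axis), with each grey point 1 of 3970 genes and the orange points the 5 of the described genes at this level. Mapk3 and Mapkapk2 lie with the GC-rich genes under 0 and Dusp16 lies at 2.97. The 15 points under -7 are genes of the Mup family, near-identical copies that share reads, of which Mup1 had 483 counts in control replicate 3 and no more than 3 in any other library.

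The genes whose pattern over the 6 libraries was closest to each of the 8 tested genes were found by the root mean square difference of centred log2 values among the genes with a mean of at least 50 normalized counts. Closest to Dusp1 were Mt2 (0.07), Cox8a (0.075) and Myo1g (0.089), against a median difference of 0.599 over all genes. For Dusp2 they were Tmbim1 (0.039), Ubqln1 (0.052) and C3ar1 (0.068), for Dusp16 Slc25a46 (0.081), Sgms1 (0.118) and Taf1 (0.127), and for Mapk3 Dgkz (0.069), Slc2a6 (0.07) and Rpl41 (0.073). Mapkapk2 was closest to Map1s (0.104), Lsm4 (0.109) and Rpl15-ps3 (0.109). Mapk14 was closest to Cyp51 (0.069), Gm9457 (0.109) and Clec4b1 (0.112), and Map3k8 to Tpm3 (0.056), Fam104a (0.07) and Oas2 (0.072). Dusp5 had no near match, its closest genes being Isoc2b (0.294), Ambra1 (0.349) and Mmp14 (0.372). These are descriptions over 6 libraries.

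The rest of the MAP kinase pathway was described by 82 other genes, 67 of which passed the filter on low counts. Of these, 1 was past the threshold and higher in M-Δx3,4 BMDMs and 1 was past it and lower, which is near the shares over all transcripts. The median log2 fold change was 0.04, and the groups did not overlap in 5 of the 67, a share close to the 8.88% over all transcripts. The genes named from these lists, in each case with control values before M-Δx3,4 values, all had an adjusted p = 0.984 in edgeR's quasi-likelihood test.

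Among 12 tested genes of other MAP kinase phosphatases and atypical dual-specificity phosphatases, 0 passed the threshold and the median was 0.08. The smallest p-values were those of Dusp22 (8.1, 13.3 and 2.3 normalized counts against 16.6, 16.5 and 14.5, log2 fold change 0.98, unadjusted p = 0.135, exact permutation p = 0.1) and Dusp12 (-0.59, unadjusted p = 0.194, exact permutation p = 0.2). The libraries of Dusp22 did not overlap, at counts close to the filter. Among the 17 tested scaffolds and other inhibitors, with a median of 0.22, 0 passed. Gadd45b, whose product binds and activates the MAP3 kinase MEKK4, had 86.0, 84.8 and 237.8 normalized counts against 104.7, 58.3 and 75.7 (log2 fold change -0.77, unadjusted p = 0.103, exact permutation p = 0.4), with the high value again in control replicate 3. The other gene named by the rule was Ptpn7, a tyrosine phosphatase of ERK and p38 (0.79, unadjusted p = 0.165, exact permutation p = 0.4).

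Of the 7 other MAP kinases tested, with a median of -0.06, Mapk6 passed the threshold. Mapk6 encodes ERK3, an atypical MAP kinase. Control stood at 141.8, 65.4 and 11.6 normalized counts and M-Δx3,4 at 126.2, 192.3 and 208.6 (log2 fold change 1.27, standard error 0.58, unadjusted p = 0.0454 and adjusted p = 0.984 in edgeR's quasi-likelihood test, exact permutation p = 0.2), and the groups overlapped. Control replicate 3 was the lowest library, and without it the value was 0.78. Without control replicate 1 it was 2.17 (unadjusted p = 0.000472, adjusted p = 0.113), in the fit in which 10.4% of all transcripts passed. Mapk6 no longer passed without control replicate 2, control replicate 3, M-Δx3,4 replicate 2 or M-Δx3,4 replicate 3. Mapk9 (JNK2) had a log2 fold change of -0.31 (unadjusted p = 0.507, exact permutation p = 0.6).

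Of the 9 kinases downstream of MAP kinases, all tested, 7 were lower and 2 higher in M-Δx3,4, with a median of -0.25. Mknk1, which encodes MNK1, the kinase that phosphorylates the cap-binding factor eIF4E, was past the threshold. Control stood at 30.2, 30.7 and 40.6 normalized counts and M-Δx3,4 at 19.6, 14.6 and 15.3, with no overlap. The log2 fold change was -1.03 (standard error 0.43, unadjusted p = 0.0295, adjusted p = 0.984 in edgeR's quasi-likelihood test, exact permutation p = 0.1), with a range of -1.17 to -0.87 when each library was left out. Mknk1 no longer passed without control replicate 3, M-Δx3,4 replicate 2 or M-Δx3,4 replicate 3. Mapkapk3 (MK3), the closest relative of MK2, had 60.4, 130.8 and 201.9 against 98.8, 49.5 and 66.5 normalized counts (-0.87, unadjusted p = 0.071, exact permutation p = 0.3), and its groups overlapped.

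Upstream of the MAP kinases no gene passed the threshold. The 6 tested MAP kinase kinases had a median of 0.00, with Map2k5 at -0.64 (unadjusted p = 0.25, exact permutation p = 0.2) and Map2k4, which activates JNK, at 0.35 (unadjusted p = 0.379, exact permutation p = 0.2). The 16 tested MAP3 kinases and their partners had a median of -0.15. Araf, a MAP3 kinase of the ERK cascade, had 111.6, 151.2 and 244.8 normalized counts against 119.3, 114.6 and 114.6 (log2 fold change -0.54, unadjusted p = 0.16, exact permutation p = 0.4). In Araf, Gadd45b, Dusp12, Map2k5, Mknk1 and Mapkapk3, as in Dusp1, Mapk3 and Mapkapk2, control replicate 3 was the highest of the 6 libraries. It was the lowest in Dusp22, Mapk6 and Map2k4, as in Dusp2, Dusp16 and Mapk14.

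**Figure D4:**
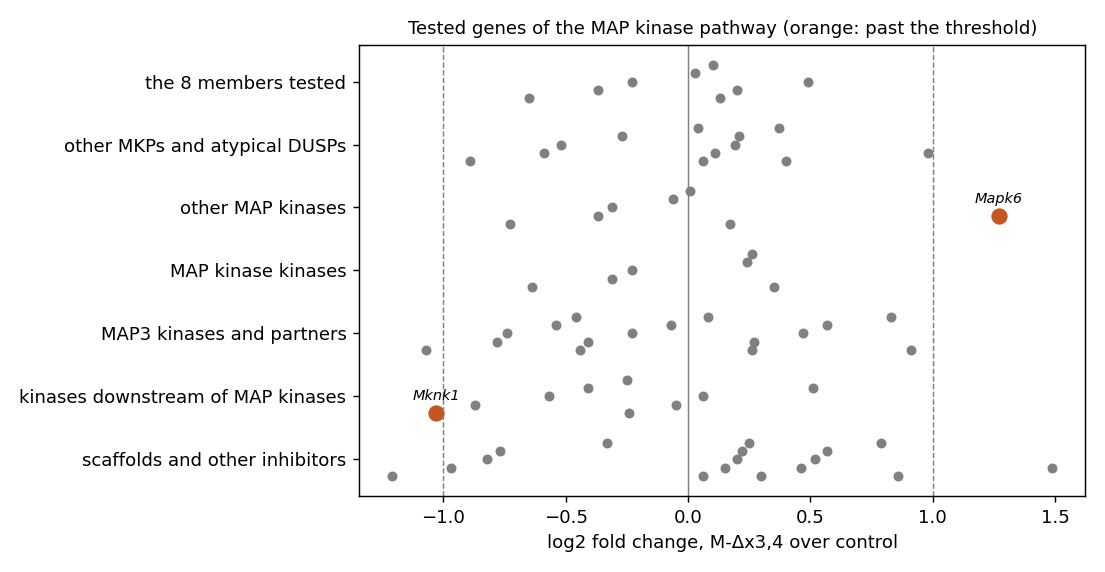
Log2 fold change of M-Δx3,4 over control (x axis) for the 8 described genes and the 67 other pathway genes tested, 1 line per list (y axis). Orange points passed the threshold, grey points did not, and dashed lines mark a log2 fold change of 1 in either direction. Mapk6 at 1.27 and Mknk1 at -1.03 are the orange points.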

How the data were processed

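RNA of 3 control and 3 M-Δx3,4 BMDM samples was made into QuantSeq 3′ libraries and sequenced on an Ion Proton. Per the submitters' processing notes, the authors aligned reads with TopHat2 (2.1.1) and Bowtie2 (2.3.2; the study's supplement names another release) to mm10. They deposited raw read counts per 3′ UTR region for 177303 regions, made with metaseqR2 (1.3.14) according to the study's methods. Their second table, with 24 further columns of normalized values per sample and their own fold changes and p-values, was not used. Regions were added up per transcript (142567 transcripts, 52013 with a count). Overlapping transcripts share reads, and 3′ counts do not show exons 3 and 4.

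Library factors were those of DESeq2's median of ratios. Transcripts above the median normalized count (4.891) in at least 1 library were kept (32475, of 11888 genes) and compared by edgeR's quasi-likelihood test (edgeR 4.0.16, R 4.3.3) with Benjamini-Hochberg adjustment over all of them. The threshold was an unadjusted p under 0.05 together with a log2 fold change of 1 or more in either direction. The cutoffs are those of the study, which applied them to a p combined over 7 methods and not to edgeR's p alone. Single genes were also compared by the exact permutation test over libraries on log2(count + 1), two-sided, with p of at least 0.1. Intervals of counts (Poisson) and shares (Wilson) cover counting error only, since the reads carry no molecular identifiers. The script was tested on simulated counts. Alternatives were other normalizations, tools (DESeq2 1.42.0, limma 3.58.1) and filters, each library left out, a replicate block and removal of a GC trend.

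UTRs were read from GENCODE vM21. All 9 genes were named by their symbol and given with all values. Of the 82 other pathway genes, those past the threshold and the 2 with the smallest p of each list were named, except for 1 gene that is not reported here, and for each of the 8 tested genes the 3 genes of the most similar pattern. The genes, lists and tests were chosen with earlier results of these data known.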

Additional observations from a re-analysis of the deposited data

How the results depend on the processing

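With all libraries kept, 86 of the 88 values of the 8 tested genes over 11 alternatives kept their sign and their side of the threshold, which asks for both the p and the fold change. The 2 exceptions changed sign with the GC trend removed, Mapk3 to 0.05 and Map3k8 to -0.30. With that trend removed 1 of the 8 genes (Dusp1, under the fold change minimum) had an unadjusted p under 0.05, against 0 before. The cause was not tested. With 1 library left out 37 of 48 values of the 8 genes kept sign and side in the same sense. The ranges were -0.02 to 0.08 for Dusp2, -0.24 to 1.25 for Dusp16, -0.52 to 0.16 for Mapk3, -0.15 to 0.39 for Mapk14 and -0.66 to 0.12 for Mapkapk2. Mapk9, which is among the other pathway genes and so not in the 48, ran from -0.56 to 0.11. In those fits 0 to 1 of the 8 genes passed the threshold (Dusp16 without control replicate 1, Dusp5 without control replicate 2) and 0 to 2 had an unadjusted p under 0.05.

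The number of all transcripts past the threshold, 1071, was 704 by DESeq2, 1715 with no filter, 471 with filterByExpr, 265 with at least 10 counts in every library, 365 with 1 transcript per gene and 213 at an unadjusted p under 0.01, and with a library left out ran from 710 to 3224, the values without control replicate 3 and control replicate 1. Of the other pathway genes 2 passed; 1 passed by DESeq2, with no filter, with filterByExpr and with 1 transcript per gene, 0 at a p under 0.01, and 0 to 8 with a library left out. The call lost was that of Mknk1 by DESeq2 and with no filter, and that of Mapk6 with filterByExpr and with 1 transcript per gene. The numbers 8 and 0 belonged to the fits without control replicate 1 and, among others, control replicate 3. Dusp22, Map2k5 and Ptpn7 could not be tested with at least 10 counts in every library.

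Same-numbered libraries did not deviate together in replicates 1 and 3 (correlations of -0.213 and -0.309 over 4723 genes), and did in replicate 2 (0.537). Control and M-Δx3,4 replicate 2 were the only same-numbered libraries that correlated best with each other. The numbers are not stated to pair cultures, and for that reason they were not taken as pairs in the main fit. With the replicate block 685 transcripts passed the threshold, and no call of the 8 genes changed. Depth limits Dusp4, which had 1 count, and Mapk14 and Map3k8, whose raw counts were at most 43 per library.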
